A study of Rattus norvegicus with 42 samples.

Results

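The genes described here are 10 members of the leukaemia inhibitory factor (LIF) and interleukin-6 (IL-6) pathway, taken by name from a rat retina count table: the ligands Lif, Il6, Clcf1, Cntf and Osm, the receptor chains Osmr, Lifr and Il6st, the transcription factor Stat3 and the inhibitor Socs3. All 10 were found, each as 1 row, among 32623 genes. PolyA RNA from adult rat retina was sequenced in 6 groups, and 31 libraries were analysed. Controls received no treatment (5 libraries), and light damage animals were exposed to 15000 lux for 24 h (7 libraries). Vehicle (5 libraries) and nanoceria (4 libraries) animals had an intravitreal injection, that is, into the eye's vitreous body, of vehicle or of 1 mM cerium oxide nanoparticles. The vehicle plus light and nanoceria plus light groups (5 libraries each) had both the injection and the light. The sources used here do not state the strain, each animal's sex, what the vehicle was or the times between injection, light and collection, and libraries are biological replicates per the labels. The design asks how intense light changes the retina and whether injection or nanoceria alters that change.

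Cytokines of this family signal through receptor complexes that all contain gp130, the product of Il6st. LIF signals through gp130 with LIFR, CNTF and CLCF1 need CNTFR as well, oncostatin M (OSM) uses OSMR or, in some species, LIFR, and IL-6 needs IL6R. The complexes activate Janus kinases (JAKs), which phosphorylate STAT3, and STAT3 then enters the nucleus and raises target genes, among them Socs3, whose product binds gp130 and the kinases and ends the signal. In the injured retina, LIF is known as a factor induced in Müller glia, the radial support cells, and it acts in the same pathway that keeps photoreceptors alive under stress.

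The median library held 106887932 counts, and the range was 25158407 to 182162368. Light damage library 1 was the shallowest, and 11.7% of its counts fell on 1 gene, against 2.16% to 3.52% in the others. Vehicle libraries 4 and 7, and light damage libraries 4 and 7, were far closer to each other than any other pair (chi-square per gene of 4.51 and 11.0, against 72.7 for the next pair). They differed by more than counting noise and were kept as separate libraries. Whether the 2 libraries of a pair came from 1 animal is not known, and every n, SD and main test counts them as separate. Summing each pair changed the call of none of the 10 genes, while calls over all genes went from 3046 to 2403 in vehicle plus light against vehicle. The share of libraries with more than 10 CPM of the Y-linked gene Eif2s3y differed between groups (1 of 5 vehicle and 4 of 5 control libraries at the extremes). Below that level, vehicle libraries 3, 4 and 7 held 1.60, 1.25 and 1.31 CPM. Light damage library 5 and nanoceria plus light library 5 each held 2.72 CPM, and the rest at most 0.337 CPM. A term for sex changed no call among the 10 genes.

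After light, 8 of the 10 genes rose in uninjected, vehicle-injected and nanoceria-injected eyes alike, and Cntf and Lifr did not pass the test in any of these comparisons. Without injection Lif rose 25.5-fold, Clcf1 10.4-fold, and Il6 from a mean of 0.0133 to 1.89 CPM. Socs3 rose 22.5-fold, Stat3 3.59-fold and Il6st 2.10-fold. CPM values are read counts scaled to a common library size. Each log2 fold change stands with its standard error (SE) and a p-value from edgeR's quasi-likelihood test, adjusted by Benjamini-Hochberg over 18094 genes and called under 0.05. Genes called higher made up 11.9% of all genes tested in light damage against control, 9.67% in vehicle plus light against vehicle and 8.15% in nanoceria plus light against nanoceria. In each of the 3 comparisons the light-exposed and unexposed libraries did not overlap for any of the 8 genes. Of all genes tested, 6.47%, 7.65% and 7.11% were higher without overlap. The median log2 fold change of the 10 genes was 2.75, 2.29 and 1.80, and that of all genes tested was -0.01, 0.02 and 0.04. All 10 genes passed the filter on low counts, Il6 through its light-exposed libraries alone. CPM is not divided by transcript length, so levels are compared between groups and not between genes.

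**Figure D1:**
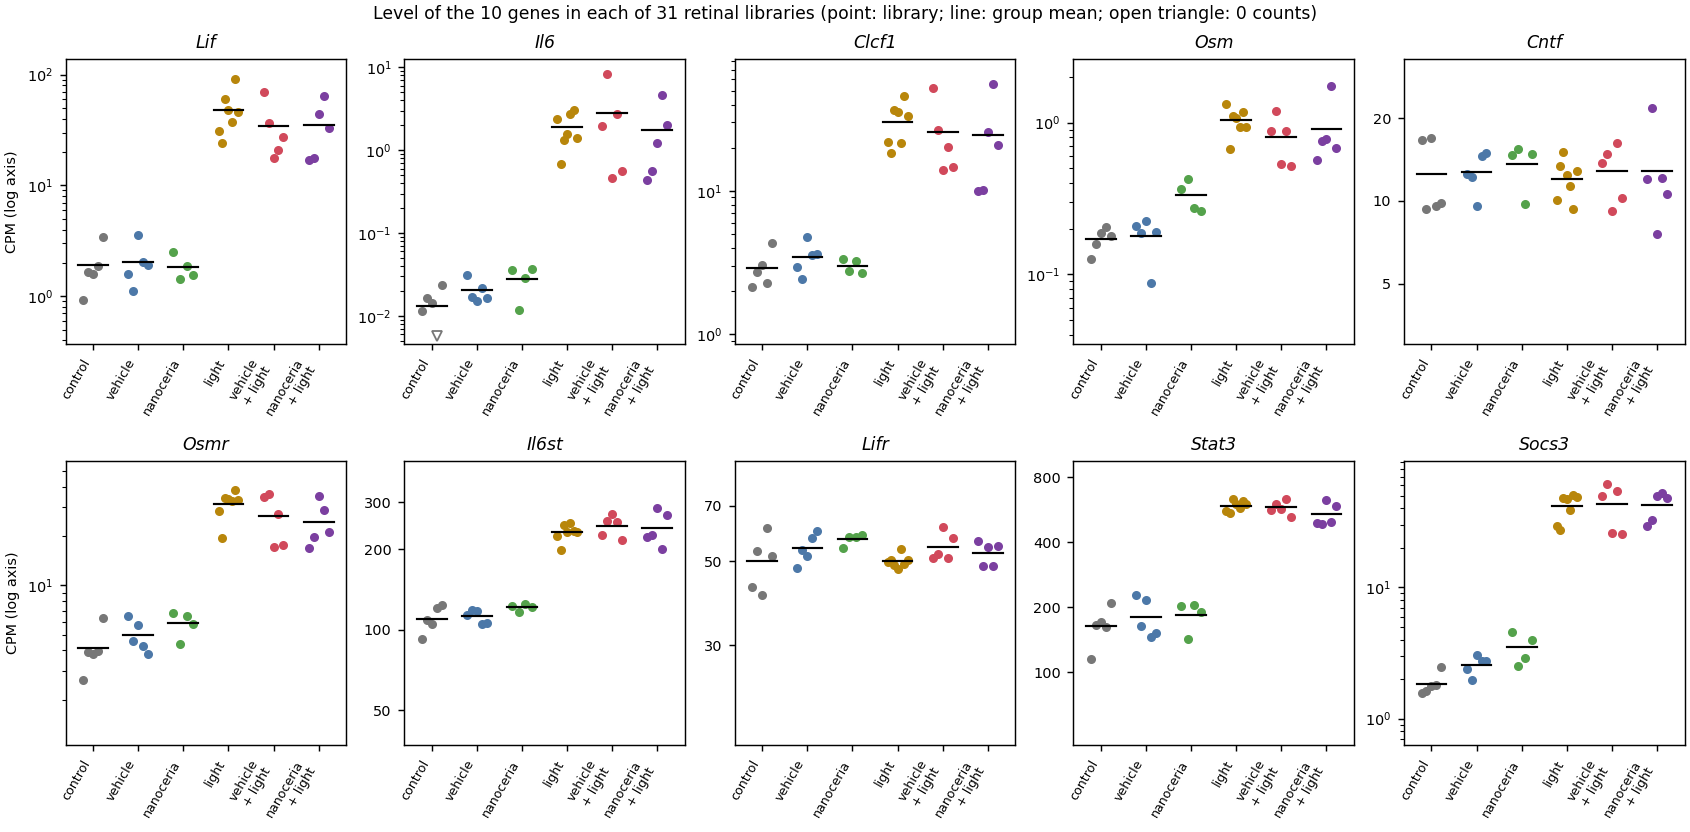
CPM (log axes, a separate range for each gene) of the 10 genes in each of 31 libraries, with points for libraries, lines for group means and an open triangle for a library with 0 counts. The 3 light-exposed groups lie above the 3 unexposed groups without overlap in 8 panels, while exposed and unexposed libraries overlap for Cntf and Lifr.

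Lif, the cytokine that names the pathway in retina (ENSRNOG00000007002), stood at 0.93, 1.67, 1.58, 1.89 and 3.41 CPM in the 5 control libraries and at 24.2 to 92.0 CPM, with a median of 45.5, in the 7 light damage libraries. Vehicle libraries held 1.59, 1.11, 3.56, 2.02 and 1.91 CPM and vehicle plus light libraries 69.7, 36.5, 17.8, 20.7 and 27.1 CPM. In nanoceria eyes the values were 2.50, 1.44, 1.86 and 1.56 CPM, and in nanoceria plus light eyes 17.1 to 64.3 CPM with a median of 32.8. Every light-exposed library was thus several times above the highest unexposed one, and the light-exposed libraries themselves spread widely. The group means were 1.90 ± 0.92 (SD, n = 5) in controls and 48.3 ± 22.6 (SD, n = 7) after light. The log2 fold change was 4.67 ± 0.47 (SE, edgeR adjusted p = 2.36e-08) without injection, 4.09 ± 0.46 after vehicle (edgeR adjusted p = 3.19e-07) and 4.26 ± 0.51 after nanoceria (edgeR adjusted p = 1.58e-06). Only 0.166% of all genes tested had a larger log2 fold change than Lif in light damage against control.

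Clcf1 (ENSRNOG00000018752) encodes cardiotrophin-like cytokine factor 1, a ligand that acts through the CNTF receptor. It stood at 2.15, 2.72, 3.06, 2.29 and 4.36 CPM in controls and at 18.2 to 45.7 CPM, with a median of 33.4, after light damage. In injected eyes without light it lay between 2.42 and 4.76 CPM, and with light between 9.90 and 55.3 CPM. The lowest light-exposed values were 9.90 and 10.2 CPM, both in the nanoceria plus light group, and they still exceeded every unexposed library. Its log2 fold change was 3.39 ± 0.40 without injection, 2.89 ± 0.41 after vehicle and 3.03 ± 0.45 after nanoceria, with edgeR adjusted p of 5.07e-07, 8.75e-06 and 2.41e-05.

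Il6 (ENSRNOG00000010278), the cytokine of acute inflammation, was close to absent without light. The 5 control libraries held 1, 2, 1, 0 and 2 counts, the vehicle libraries 3, 2, 1, 2 and 2, and the nanoceria libraries 3, 1, 3 and 4. After light, single libraries held 49 to 425 counts (light damage), 51 to 1604 (vehicle plus light) and 45 to 588 (nanoceria plus light). In CPM the control mean was 0.0133 ± 0.0087 (SD, n = 5), and the light damage libraries lay between 0.682 and 3.04 with a median of 1.57. Libraries of the injected and light-exposed groups spread widely among themselves, from 0.462 to 8.42 CPM after vehicle and from 0.435 to 4.65 CPM after nanoceria. In log2 terms the change was 7.07 ± 0.89, 7.05 ± 0.86 and 5.91 ± 0.90 (edgeR adjusted p = 1.17e-06, 1.12e-06 and 3.45e-05). The size of each fold rests on few counts in the unexposed eyes. Summed over libraries, 1484 counts stood against 6, a ratio of 140 after scaling to library size with an exact binomial 95% interval of 64.2 to 382 that covers counting error only. The same ratio was 174 (94.7 to 364) after vehicle and 66.1 (36.8 to 133) after nanoceria. Without vehicle plus light library 2, the log2 fold change after vehicle was 6.06, and without nanoceria plus light library 4 the one after nanoceria was 5.16, both still called.

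The upstream windows of Il6, which rose most, and of Cntf, which did not pass the test, are shown because these were the members whose window begins at the outermost start of the gene in the RefSeq table (build GRCr8, another assembly than the rn6 build of the counts). A window of 250 bases before the start was present for 7 of the 10 genes. Il6 lies at chr4:5894576-5894825 and Cntf at chr1:219314536-219314785, both given on the minus strand and 5′ to 3′, with motif matches in capitals.
Il6: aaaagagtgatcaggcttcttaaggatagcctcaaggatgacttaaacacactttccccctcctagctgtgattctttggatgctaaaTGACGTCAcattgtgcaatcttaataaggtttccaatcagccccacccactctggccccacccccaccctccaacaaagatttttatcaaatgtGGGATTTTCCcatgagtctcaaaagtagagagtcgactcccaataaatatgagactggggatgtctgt
Cntf: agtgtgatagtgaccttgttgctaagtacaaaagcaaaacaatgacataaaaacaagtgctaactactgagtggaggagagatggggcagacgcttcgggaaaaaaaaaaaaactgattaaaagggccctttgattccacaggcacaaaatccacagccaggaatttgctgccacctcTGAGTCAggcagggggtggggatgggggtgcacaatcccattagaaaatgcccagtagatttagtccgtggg
In these windows 4 motifs were searched on both strands: TTCNNNGAA (the consensus of STAT factors), TGANTCA (the AP-1 element), TGACGTCA (the cAMP response element) and the kappaB element. The Il6 window held TGACGTCA, whose first base lies 162 bases before the start, and a kappaB match 68 bases before it. The Cntf window held 1 match to TGANTCA, 72 bases before the start. No match to TTCNNNGAA was found in any of the 7 windows, and the windows of Osmr (TGANTCA) and Socs3 (kappaB) held 1 match each. The windows of Il6st, Osmr, Lifr, Stat3 and Socs3 do not begin at the outermost start, so sequence before that start may not be covered. Sequence outside the windows was not searched, so a lack of matches does not describe the whole promoter. Of 33469 windows of this length, 7.67% held TTCNNNGAA, 6.34% TGANTCA, 1.59% TGACGTCA and 6.33% kappaB. A match is a match of letters, and binding was not measured in these samples.

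Osm (ENSRNOG00000024390), made mainly by leukocytes, was low in all groups. It stood at 0.126, 0.158, 0.187, 0.206 and 0.179 CPM in controls, at 0.208, 0.188, 0.224, 0.0872 and 0.190 CPM after vehicle, and at 0.367, 0.425, 0.275 and 0.263 CPM after nanoceria. The light damage libraries lay between 0.669 and 1.32 CPM with a median of 1.08, and the injected and light-exposed libraries between 0.519 and 1.75 CPM. All light-exposed libraries were above all unexposed ones, and the nanoceria eyes without light were the highest of the unexposed groups. The log2 fold change with light was 2.57 ± 0.29 without injection (edgeR adjusted p = 1.88e-07) and 2.16 ± 0.30 after vehicle (edgeR adjusted p = 5.91e-06). After nanoceria it was 1.45 ± 0.31 (edgeR adjusted p = 0.0015), and this call was lost in the fit of those 2 groups alone (1.44, edgeR adjusted p = 0.0516, with 0.000165 to 0.0516 over all alternatives). Osm and Lif are neighbours in the RefSeq gene order, with no protein-coding gene between them.

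Cntf (ENSRNOG00000012460), ciliary neurotrophic factor, is a survival factor of the family with no classical secretion signal. Controls held 16.7, 9.36, 16.9, 9.56 and 9.85 CPM, and light damage libraries 9.34 to 15.1 CPM with a median of 12.4. The injected groups lay between 9.59 and 15.5 CPM without light and between 7.56 and 21.8 CPM with it. The groups overlapped throughout. For Cntf the log2 fold change was -0.05 ± 0.21 without injection (95% interval -0.47 to 0.38), 0.01 ± 0.23 after vehicle (-0.46 to 0.47) and -0.09 ± 0.24 after nanoceria (-0.58 to 0.40). Changes beyond those bounds are outside the intervals, and smaller ones would not have been detected.

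Among the receptor chains, Osmr and Il6st rose and Lifr did not pass the test. Osmr (ENSRNOG00000033192), the signalling chain for OSM, stood at 2.63, 3.92, 3.80, 3.99 and 6.34 CPM in controls and at 19.3 to 38.4 CPM, with a median of 33.3, after light damage. With vehicle it went from 3.82 to 6.46 CPM without light to 17.2 to 36.0 CPM with it, and with nanoceria from 4.40 to 6.73 CPM to 16.8 to 35.1 CPM. No light-exposed library fell below 16.8 CPM and no unexposed library exceeded 6.73 CPM. Its log2 fold change was 2.93 ± 0.25, 2.42 ± 0.25 and 2.05 ± 0.27 (edgeR adjusted p = 1.48e-09, 6.57e-08 and 4.52e-06).

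Il6st (ENSRNOG00000013963), the shared gp130 chain, stood at 92.4, 109, 105, 121 and 124 CPM in controls, and at 198 to 251 CPM, with a median of 232, after light damage. In vehicle eyes the means were 112 ± 6.2 (SD, n = 5) without light and 244 ± 23 (SD, n = 5) with it. In nanoceria eyes they were 121 ± 3.5 (SD, n = 4) and 240 ± 35 (SD, n = 5). The groups did not overlap in any setting. The fold was 2.10 (95% interval 1.87 to 2.36) without injection, 2.17 (1.92 to 2.46) after vehicle and 1.98 (1.74 to 2.27) after nanoceria, with edgeR adjusted p of 2.51e-10, 7.08e-10 and 3.27e-08.

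Lifr (ENSRNOG00000011696), the partner of gp130 for LIF, stood at 42.8, 53.1, 40.9, 61.4 and 51.6 CPM in controls and at 47.7 to 53.9 CPM after light damage. All 31 libraries lay between 40.9 and 61.4 CPM. The log2 fold change with light was 0.00 ± 0.08 without injection (95% interval -0.15 to 0.16), 0.01 ± 0.08 after vehicle (-0.16 to 0.18) and -0.12 ± 0.09 after nanoceria (-0.30 to 0.06). Osmr and Lifr are neighbours in the RefSeq gene order with no protein-coding gene between them, so that of these adjacent receptor genes 1 was called and the other was not.

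Stat3 (ENSRNOG00000019742), the transcription factor of the pathway and itself a STAT3 target, stood at 115, 165, 172, 163 and 209 CPM in controls and at 548 to 631 CPM, with a median of 602, after light damage. Vehicle libraries held 228, 164, 216, 146 and 152 CPM and vehicle plus light libraries 564, 599, 572, 635 and 525 CPM. Nanoceria libraries held 202, 142, 204 and 191 CPM and nanoceria plus light libraries 492, 484, 629, 499 and 591 CPM. The light-exposed libraries clustered tightly, with an SD of 30.9 CPM around a mean of 591 in the 7 light damage libraries, in contrast to the wide spread of Lif. For Stat3 the log2 fold change was 1.84 ± 0.13, 1.67 ± 0.13 and 1.54 ± 0.14 (edgeR adjusted p = 5.45e-11, 8.58e-10 and 2.44e-08). These are transcript levels, and phosphorylation of STAT3 was not measured.

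Socs3 (ENSRNOG00000002946), the feedback inhibitor, stood at 1.56, 1.63, 1.78, 1.79 and 2.47 CPM in controls, at 2.41, 1.96, 3.04, 2.77 and 2.74 CPM after vehicle and at 4.58, 2.52, 2.91 and 4.00 CPM after nanoceria. With light it stood at 27.6 to 50.4 CPM (median 47.5) without injection, at 25.5 to 61.7 CPM (median 50.1) after vehicle, and at 29.2, 32.6, 49.7, 52.1 and 48.4 CPM after nanoceria. The light-exposed means were close to each other, at 41.5 ± 9.6 (SD, n = 7), 43.5 ± 16.7 (SD, n = 5) and 42.4 ± 10.7 (SD, n = 5) CPM, while the unexposed means were 1.85 ± 0.36 (SD, n = 5) in controls, 2.58 ± 0.42 (SD, n = 5) after vehicle and 3.50 ± 0.95 (SD, n = 4) after nanoceria. Neighbours in that order did not differ by the test (edgeR adjusted p = 0.631 and 1). The log2 fold change was 4.49 ± 0.27 without injection, 4.08 ± 0.27 after vehicle and 3.60 ± 0.28 after nanoceria (edgeR adjusted p = 2.85e-12, 2.33e-11 and 2.07e-09).

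**Figure D2:**
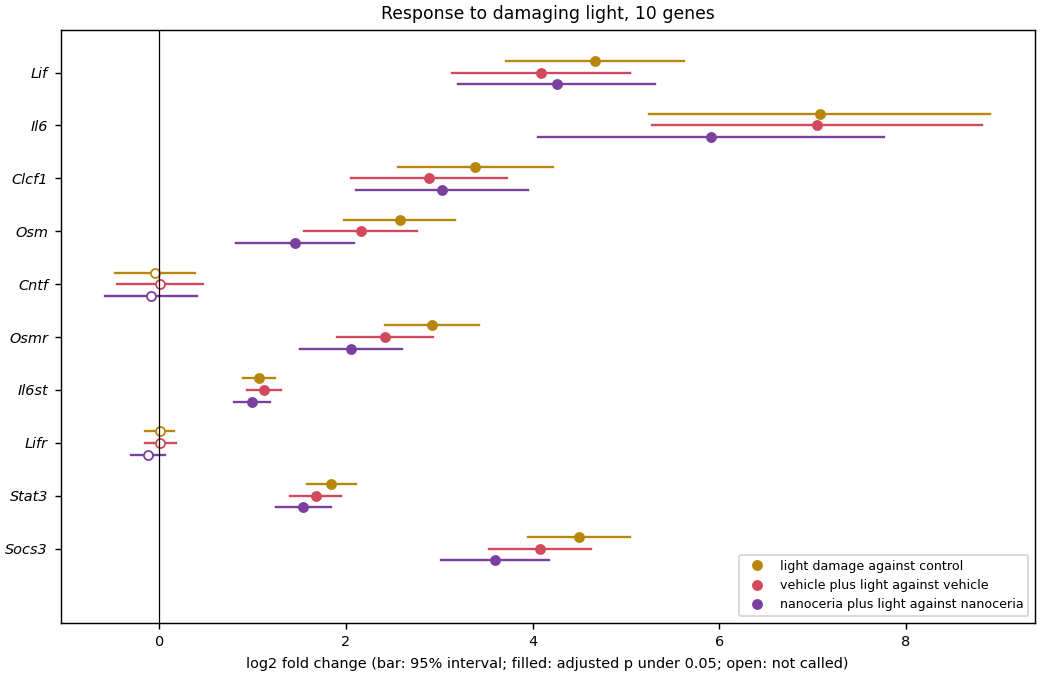
Log2 fold change with light (x axis) of the 10 genes without injection, after vehicle and after nanoceria, with 95% intervals from edgeR and filled points for an adjusted p under 0.05. Lif, Il6, Clcf1, Osm, Osmr, Il6st, Stat3 and Socs3 lie to the right of 0 in all 3 comparisons, and the intervals of Cntf and Lifr include 0.

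Marker genes of several cell types moved with light as well. Rod genes were abundant in all 31 libraries, as the retina label has it. Of 5 rod photoreceptor genes, 4 fell without injection, 3 after vehicle and 4 after nanoceria (edgeR, percent of all genes called lower 10.6, 7.17 and 5.78, and higher 11.9, 9.67 and 8.15). Their summed level was 27127 to 51790 CPM in controls and 8023 to 16082 CPM after light damage, 36365 to 46095 and 6509 to 16545 CPM in the vehicle groups, and 33259 to 51380 and 3425 to 17548 CPM in the nanoceria groups. Of 6 Müller glia genes, 3 fell without injection, and 1 rose and 1 fell after vehicle and after nanoceria. Their sum was 3372 to 4871 CPM in controls and 1973 to 2568 CPM after light damage. Of 5 microglia genes, 2, 0 and 3 fell, and of 4 T cell genes, 2, 0 and 0 rose. Their sums overlapped between controls and light damage (84.5 to 109 and 73.3 to 115 CPM for microglia, 1.27 to 1.81 and 1.40 to 4.13 CPM for T cells). Of 3 monocyte genes, 3, 2 and 1 rose, and of 4 neutrophil genes tested, 1, 1 and 0 rose, with a neutrophil sum of at most 9.93 CPM in any library. The neutrophil gene that rose was Camp, with means of 0.0166 CPM in controls and 0.164 CPM after light damage. Like Il6, Camp passed the filter on low counts through its light-exposed libraries alone. S100a8, S100a9 and Ngp were not called. No gene of these lists was at 0 in all libraries of a group. Fewer cells of a type and less RNA per cell cannot be told apart in bulk tissue, and the part of cell composition in the changes of the 10 genes was not tested.

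The rest of the pathway was described from lists of its other ligands, receptors, kinases, inhibitors and targets. Il11, another gp130 ligand, was the only further ligand called: its log2 fold change was 3.05 ± 0.50 without injection, 1.60 ± 0.49 after vehicle and 1.84 ± 0.53 after nanoceria (edgeR adjusted p = 4.54e-05, 0.0222 and 0.0191). The call after vehicle was lost with the near-identical pairs summed (1.60) and without any one of vehicle libraries 2 and 4 or vehicle plus light library 1 (1.53, 1.56 and 0.89). That after nanoceria was lost in the fit of those 2 groups alone (1.82) and without any one of nanoceria libraries 2 and 3 or nanoceria plus light library 4 (1.74, 1.78 and 1.10). Ctf1, which encodes cardiotrophin 1, did not pass in any of the 3, with a log2 fold change of -0.31 ± 0.15 without injection that passed without control library 5 (-0.42). Il27, Il31 and Ctf2 were too low to test, with at most 11 counts in any library.

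Of 5 other receptor chains, 2 rose without injection, 1 after vehicle and 0 after nanoceria (percent of all genes called higher 11.9, 9.67 and 8.15). Il6r, which confers IL-6 binding, rose by 0.68 ± 0.17 on the log2 scale without injection (edgeR adjusted p = 0.00455) and by 0.81 ± 0.19 after vehicle (edgeR adjusted p = 0.0024), while its value after nanoceria was 0.46 ± 0.20 (edgeR adjusted p = 0.122), called without nanoceria plus light library 2 (0.58). Il27ra, the IL-27 chain, passed without injection only narrowly (0.78 ± 0.27, edgeR adjusted p = 0.038), and that call was lost with a term for sex (0.65), in the fit of those 2 groups alone (0.78) and without any one of control libraries 2, 4, 5 and 6 or of light damage libraries 5 and 6 (edgeR adjusted p of 0.0228 to 0.105 over all alternatives). Cntfr, Il11ra1 and Il31ra did not pass. Their log2 fold changes without injection were -0.12 ± 0.14, -0.16 ± 0.10 and 1.04 ± 0.64.

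Among 9 kinases and other STATs tested, 6 rose and 1 fell without injection, 5 and 1 after vehicle, and 4 and 1 after nanoceria. The shares of all genes tested were 11.9%, 9.67% and 8.15% called higher and 10.6%, 7.17% and 5.78% called lower. Jak3, a kinase of leukocyte cytokine receptors, had the largest log2 fold change of the list, at 2.58 ± 0.18, 2.17 ± 0.18 and 1.78 ± 0.20. Jak2 rose by 0.80 ± 0.11, 0.60 ± 0.12 and 0.44 ± 0.13, and Stat2, a STAT of interferon signalling, by 0.52 ± 0.10, 0.60 ± 0.11 and 0.58 ± 0.12. Jak1, a main kinase of gp130, rose by 0.30 ± 0.06 and 0.22 ± 0.07 and stood at 0.15 ± 0.07 after nanoceria (edgeR adjusted p = 0.162). Stat5b was the member that fell, with -0.39 ± 0.06, -0.41 ± 0.07 and -0.42 ± 0.07. The list's median was 0.30, 0.30 and 0.22. The call of Jak1 after vehicle was lost with near-identical pairs summed (0.20), in the fit of those 2 groups alone (0.21) and without any one of vehicle libraries 4 and 7 or vehicle plus light libraries 2 and 4 (0.19 to 0.21), and that of Jak2 after nanoceria in the fit of those 2 groups alone (0.42) and without nanoceria library 5 (0.42) or nanoceria plus light library 4 (0.35).

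The list of 15 further inhibitors was mixed, with 7 genes higher and 2 lower without injection and 5 higher and 1 lower in each injected setting, and a median of 0.01, 0.03 and 0.11. Over all genes tested, 11.9%, 9.67% and 8.15% were called higher and 10.6%, 7.17% and 5.78% lower. Cish, a SOCS-family inhibitor best known as a STAT5 target, went from 17.7 ± 5.2 (SD, n = 5) to 133 ± 18 CPM (SD, n = 7) without injection. Its log2 fold change was 2.91 ± 0.27, 2.49 ± 0.27 and 2.55 ± 0.30. Socs2 rose by 1.28 ± 0.14, 0.83 ± 0.15 and 0.57 ± 0.16 and Socs1 by 1.04 ± 0.17, 0.80 ± 0.18 and 0.77 ± 0.19. The call of Socs2 after nanoceria was lost in the fit of those 2 groups alone (0.55) and without nanoceria library 2 (0.50) or nanoceria plus light library 3 (0.43). The phosphatase genes Ptpn1 (0.86 ± 0.15 without injection) and Ptpn2 (0.41 ± 0.06) rose in all 3 comparisons. Pias3, which encodes an inhibitor of DNA-bound STAT3, fell by 0.43, 0.30 and 0.42 on the log2 scale, the call after vehicle being lost with library size alone as the scaling (-0.21).

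Of 19 STAT3 targets measured, 14 rose and 0 fell without injection, 13 rose and 1 (Hif1a) fell after vehicle, and 12 rose and 0 fell after nanoceria, with medians of 1.29, 1.49 and 1.34. Of all genes tested, 11.9%, 9.67% and 8.15% were called higher and 10.6%, 7.17% and 5.78% lower. Many of these genes respond to other factors as well. Icam1, a leukocyte adhesion molecule, went from 11.7 ± 2.2 to 79.9 ± 9.7 CPM (SD, n = 5 and 7) without injection, a log2 fold change of 2.78 ± 0.18. Timp1, a metalloproteinase inhibitor, rose by 2.73 ± 0.23 and Cebpd, an acute-phase transcription factor, by 2.68 ± 0.24. Lrg1 rose by 1.92 ± 0.23, Junb, an AP-1 subunit, by 1.93 ± 0.24 and the kinase gene Pim3 by 0.58 ± 0.08. All 6 also rose after vehicle and after nanoceria, Pim3 by 0.32 after nanoceria, a call lost in the fit of those 2 groups alone (0.31) and without any one of nanoceria libraries 1 and 5 or nanoceria plus light library 4 (0.25 to 0.32). The call of Lrg1 after nanoceria was lost in that fit too (1.33). The call of Hif1a, a hypoxia-responsive factor named because it was the only target that fell (-0.34 ± 0.11), was lost with library size alone (-0.25), with near-identical pairs summed (-0.31) and without any one of vehicle libraries 2, 4 and 7 or vehicle plus light libraries 3 and 4 (-0.32 to -0.30). After nanoceria, Hif1a gained a call as lower with the DESeq2 Wald test (-0.33) and without nanoceria plus light library 2 (-0.39).

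Genes reported to act downstream of LIF in the injured retina moved in part. Edn2, the photoreceptor-derived endothelin, went from 0.153 ± 0.099 to 2.02 ± 0.54 CPM (SD, n = 5 and 7) without injection, a log2 fold change of 3.74 ± 0.42, and its response was 3.45 ± 0.42 after vehicle and 2.91 ± 0.44 after nanoceria. Fgf2, a photoreceptor survival factor, rose by 2.23 ± 0.17, 1.96 ± 0.17 and 1.85 ± 0.19. Gfap, a filament gene raised in reactive Müller glia and in astrocytes, rose without injection (1.99 ± 0.50, edgeR adjusted p = 0.00383). With light its log2 fold change was 1.41 ± 0.51 after vehicle (edgeR adjusted p = 0.0573) and 0.87 ± 0.54 after nanoceria (edgeR adjusted p = 0.326). After vehicle it was called without vehicle library 1 (2.16), with library size alone (1.53), in the replicate block (1.49) and with the DESeq2 Wald test (1.40). Unexposed Gfap levels ranged widely, from 12.3 to 110 CPM in controls and from 49.1 to 346 CPM after vehicle.

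**Figure D3:**
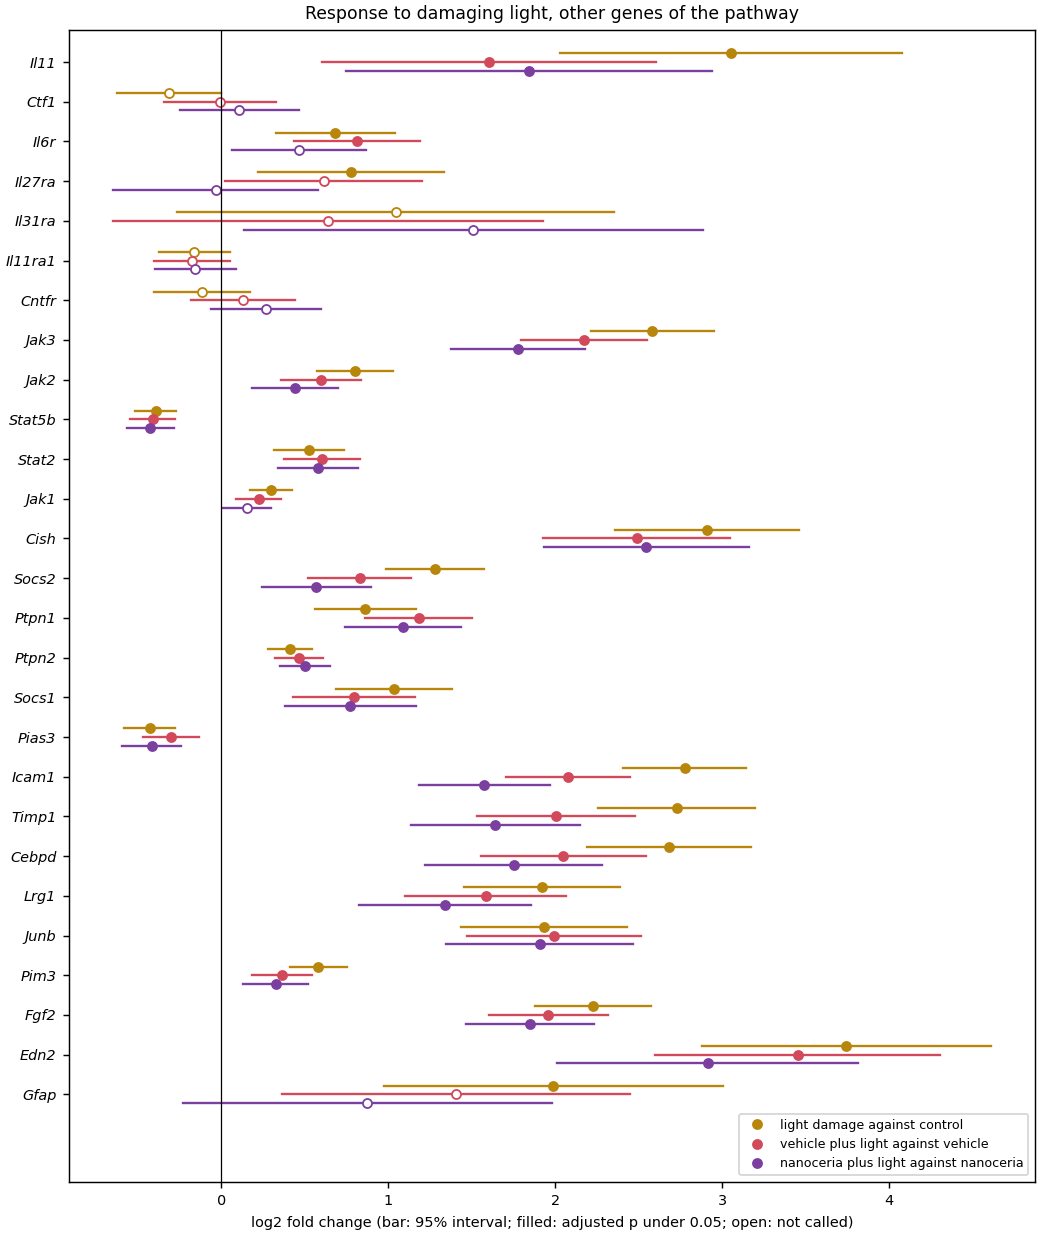
Log2 fold change with light (x axis) of the named ligands, receptors, kinases, STATs, inhibitors, STAT3 targets and genes downstream of LIF, with 95% intervals from edgeR and filled points for an adjusted p under 0.05. Il11, Jak3, Cish, Icam1, Timp1, Cebpd, Fgf2 and Edn2 lie far to the right of 0, Stat5b and Pias3 to the left, and the receptor chains Cntfr and Il11ra1 near 0.

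Injection without light changed none of the 10 genes past the threshold. In vehicle against control, edgeR called 0 of 10 (0 at an unadjusted p under 0.05, and 0 with DESeq2), where 0.0221% of all genes were called. In nanoceria against control, where 2.46% of all genes were called (1.73% higher, 0.73% lower), edgeR called 0 of 10, with 3 at an unadjusted p under 0.05 (Osm, Lifr and Socs3) and 1 with DESeq2 (Socs3). An unadjusted p under 0.05 was found for 14.2% of all genes there. Of the called genes, 313 were higher and 132 lower. Scaling by library size alone gave 341 and 34, and a fit of only those 2 groups gave 337 and 32. Socs3 was at 1.56 to 2.47 CPM in controls and 2.52 to 4.58 CPM after nanoceria, with no overlap, and 4.24% of all genes were higher without overlap. Its log2 fold change was 0.93 ± 0.26 with an edgeR adjusted p of 0.0501. With DESeq2 the adjusted p was 0.00973, and over all alternatives it ranged from 0.00973 to 0.199, with calls also without control library 6 (1.09) or nanoceria library 2 (1.05). Osm was likewise higher in every nanoceria library than in every control (0.95 ± 0.31, edgeR adjusted p = 0.112) and than in every vehicle library (0.88 ± 0.31, edgeR adjusted p = 0.542), where 1.94% of all genes were higher without overlap. In nanoceria against vehicle, edgeR called 0% of all genes and 0 of 10 members, with 1 (Osm) at an unadjusted p under 0.05 and 0 with DESeq2.

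The corresponding values of Lif were 0.09 ± 0.43 (vehicle against control), -0.04 ± 0.46 (nanoceria against control) and -0.14 ± 0.46 (nanoceria against vehicle). Stat3 stood at 0.14 ± 0.13, 0.17 ± 0.14 and 0.03 ± 0.14, and Il6st at 0.03 ± 0.09, 0.14 ± 0.09 and 0.11 ± 0.09. The 95% interval of Stat3 in nanoceria against control was -0.11 to 0.45. For Lifr the difference was 0.19 ± 0.09 (edgeR adjusted p = 0.294).

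Among the named genes of the lists, 3 passed in nanoceria against control in the main fit. Jak3 was higher by 0.90 ± 0.19 (edgeR adjusted p = 0.00882), a call lost without nanoceria library 1 (0.70, edgeR adjusted p = 0.0672, with 0.000185 to 0.0672 over all alternatives). Fgf2 was higher by 1.03 ± 0.18 (edgeR adjusted p = 0.00324), with the call lost in the fit of those 2 groups alone (1.06). The STAT3 target A2m, alpha-2-macroglobulin, was higher by 1.00 ± 0.21 (edgeR adjusted p = 0.00776), lost without nanoceria library 1 (0.80). A2m is named because it was the only STAT3 target called in that comparison by the main fit, chosen after its values were seen. Other named genes gained a call under alternatives. Icam1 (0.65), Edn2 (1.51) and Gfap (1.81) passed with the DESeq2 Wald test, and also without control library 6 (0.76, 1.95 and 2.23). Timp1 passed in the fit of those 2 groups alone (0.59). In vehicle against control, Fgf2 stood at 0.61 ± 0.17 (edgeR adjusted p = 0.329) and Gfap at 1.26 ± 0.51 (edgeR adjusted p = 0.526). In nanoceria against vehicle, where 0% of all genes were called, they stood at 0.41 ± 0.18 and 0.53 ± 0.53. No gene named here passed in that comparison. Markers of some immune cells moved in nanoceria against control: 4 of 5 microglia genes, 3 of 4 T cell genes and 1 of 3 monocyte genes were called higher. So was 1 of 3 endothelial genes (Vwf, 0.70 ± 0.18), while no neutrophil gene tested was called (edgeR adjusted p of 0.165 to 0.497). Of all genes tested, 1.73% were called higher in that contrast. The summed microglia level was 84.5 to 109 CPM in controls and 136 to 183 CPM after nanoceria, the T cell sum 1.27 to 1.81 and 2.55 to 6.97 CPM, and the endothelial sum 80.2 to 116 and 125 to 131 CPM. The monocyte sum had a median of 92.1 CPM in controls and 197 CPM after nanoceria. Their part in the values of Socs3, Osm and Jak3 was not tested. Lens genes were uneven in the injected eyes, with sums of 787 to 7086 CPM after vehicle and 110 to 1763 CPM in controls, and 0 of 5 were called in vehicle against control by edgeR.

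**Figure D4:**
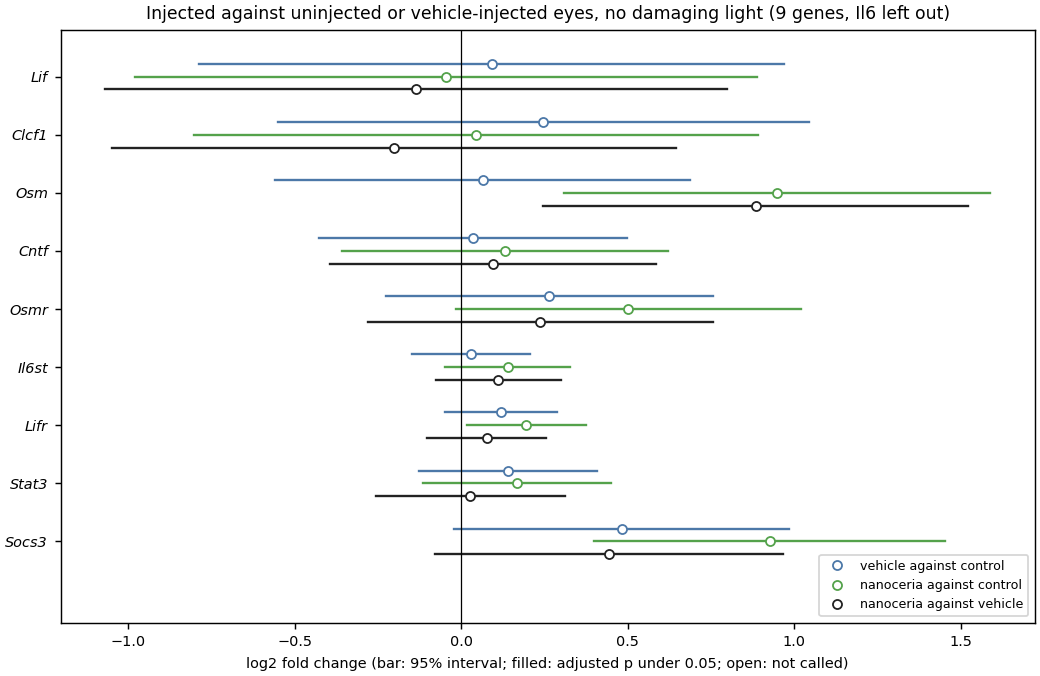
Log2 fold change (x axis) of 9 genes between the 3 unexposed groups, with 95% intervals from edgeR. All points are open because no adjusted p was under 0.05, and the values furthest from 0 belong to Osm and Socs3 in nanoceria against control. Il6 is left out because its unexposed libraries hold at most 4 counts.

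With light in both groups, injection again moved none of the 10 genes past the threshold. EdgeR called 0 of 10 in vehicle plus light against light damage (0.122% of all genes called), in nanoceria plus light against light damage (0.0608%, of which 0.0276% higher and 0.0332% lower) and in nanoceria plus light against vehicle plus light (0%). In each, 0 of 10 had an unadjusted p under 0.05 and DESeq2 called 0. Lif means were ordered light damage (48.3 CPM), nanoceria plus light (35.2 ± 19.8) and vehicle plus light (34.4 ± 21.0), and no neighbours in that order differed beyond their spread. In nanoceria plus light against vehicle plus light, the log2 fold change was 0.03 ± 0.40 for Lif, with a 95% interval of -0.79 to 0.86. For Stat3 it was -0.10 ± 0.13 (-0.37 to 0.16), for Socs3 -0.04 ± 0.23 (-0.51 to 0.44) and for Il6st -0.02 ± 0.09 (-0.20 to 0.16). These intervals bound what a nanoceria effect on the light-exposed level could be at this number of libraries. The value of Il6, -0.68 ± 0.59, became 0.31 without vehicle plus light library 2.

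Whether the response to light itself differed between settings was tested as an interaction, and 0 of 10 genes passed in any of the 3. In light response after vehicle minus without injection, 0.0442% of all genes were called, and 0 members had an unadjusted p under 0.05. After nanoceria minus without injection the share was 0.409% (0.0774% higher, 0.332% lower), and 3 members had an unadjusted p under 0.05, as did 9.88% of all genes. These were Osm (-1.12 ± 0.40, edgeR adjusted p = 0.278), Osmr (-0.87 ± 0.33, edgeR adjusted p = 0.319) and Socs3 (-0.90 ± 0.34, edgeR adjusted p = 0.306). After nanoceria minus after vehicle, edgeR called 0% of all genes and 0 members, with 0 at an unadjusted p under 0.05. DESeq2 called 0 members in each of the 3 interactions. Lif stood at -0.41 ± 0.59 and Stat3 at -0.30 ± 0.18 after nanoceria minus without injection. The nanoceria and control libraries of that interaction are those in which Osm and Socs3 stood higher after nanoceria without light. All 10 values were below 0, as were 41.4% of all genes tested, with a median of -0.39 against 0.04. Among them Il6 rests on 0 to 4 counts in unexposed libraries, and Cntf, Lifr and Il6st lay near 0 (-0.12 to -0.04). Of the 19 STAT3 targets 1 passed there: Icam1, with log2 fold changes of 2.78 without injection and 1.58 ± 0.19 after nanoceria, differed by -1.20 ± 0.25 (edgeR adjusted p = 0.0266). That call was lost without any one of 6 libraries (control 2, light damage 5, nanoceria 1, 3 and 5, nanoceria plus light 2), with values of -1.21 to -1.12. The target Timp1 gained a call there with the DESeq2 Wald test (-1.13) and without light damage library 2 (-1.19). The monocyte marker Lyz2 was called lower in the same interaction (-1.99 ± 0.40, edgeR adjusted p = 0.0259), and its part in the value of Icam1 was not tested.

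Within the light-exposed eyes the genes varied together to different degrees. The 2 near-identical light damage libraries were averaged, which left 16, and 19 relations of log2 CPM were tested by permutation (100000 draws, 2-sided, p adjusted over the 19 by Benjamini-Hochberg). Clcf1 followed Lif closely (Pearson r = 0.94, Spearman rho = 0.96, both with permutation p = 1e-05, the smallest these draws can give, and adjusted p = 0.00019). The relation held without the 2 libraries furthest from the median of Lif (r = 0.94) and within the 6 light damage libraries (r = 0.96). Osmr followed Lif with r = 0.81 (permutation p = 0.00027, adjusted p = 0.00256) and rho = 0.84 (permutation p = 6e-05, adjusted p = 0.00057), r = 0.75 without the 2 libraries and r = 0.86 within light damage. For Osm r was 0.67 (permutation p = 0.00505, adjusted p = 0.024) and rho 0.66 (permutation p = 0.00638, adjusted p = 0.0271), and for Il6 r was 0.59 (permutation p = 0.0172, adjusted p = 0.0362) and rho 0.61 (permutation p = 0.0144, adjusted p = 0.0455).

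For the inhibitor Socs3 against Lif, r was 0.64 (permutation p = 0.00827, adjusted p = 0.0262) and rho 0.57 (permutation p = 0.0239, adjusted p = 0.0568), with r = 0.90 within light damage. Differences between these correlations were not tested. Stat3 gave r = 0.39 (permutation p = 0.132, adjusted p = 0.179) and rho = 0.42 (permutation p = 0.106, adjusted p = 0.171) over all 16 libraries, with r = 0.90 within the 6 light damage libraries, 0.19 without the 2 libraries furthest in Lif and 0.35 once group means were removed. Il6st gave r = -0.06 (permutation p = 0.834, adjusted p = 0.881) and rho = 0.05 (permutation p = 0.867, adjusted p = 0.867).

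The mean log2 CPM of the 5 rod genes was lower where Clcf1, Lif and Socs3 were higher. For Clcf1 r was -0.71 (permutation p = 0.00174, adjusted p = 0.011) and rho -0.71 (permutation p = 0.00235, adjusted p = 0.0149). Lif gave r = -0.60 (permutation p = 0.0131, adjusted p = 0.0312) and rho = -0.65 (permutation p = 0.00712, adjusted p = 0.0271). For Socs3 r was -0.60 (permutation p = 0.0115, adjusted p = 0.0312) and rho -0.59 (permutation p = 0.0177, adjusted p = 0.048), with r = -0.77 without the 2 libraries furthest in rod level and r = -0.99 within light damage. Without those 2 libraries r was -0.66 for Clcf1 and -0.59 for Lif. Removing group means left r at -0.76 for Clcf1, -0.66 for Lif and -0.60 for Socs3. Stat3 showed r = -0.0021 (permutation p = 0.994, adjusted p = 0.994) and rho = -0.32 (permutation p = 0.229, adjusted p = 0.29) over the 16 libraries, with r = -0.47 without those 2 and r = -0.94 within the 6 light damage libraries. Relations of the rod level with the other ligands were mixed. Osm gave r = -0.63 (permutation p = 0.00757, adjusted p = 0.0262) and rho = -0.52 (permutation p = 0.0403, adjusted p = 0.0765), with r = -0.40 without the 2 libraries. For Il6 r was -0.51 (permutation p = 0.0422, adjusted p = 0.0718) and rho -0.40 (permutation p = 0.126, adjusted p = 0.171), and for Cntf r was -0.16 (permutation p = 0.551, adjusted p = 0.615) and rho -0.30 (permutation p = 0.257, adjusted p = 0.306). CPM values of a library share 1 total, and the part of this in the relations was not tested.

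**Figure D5:**
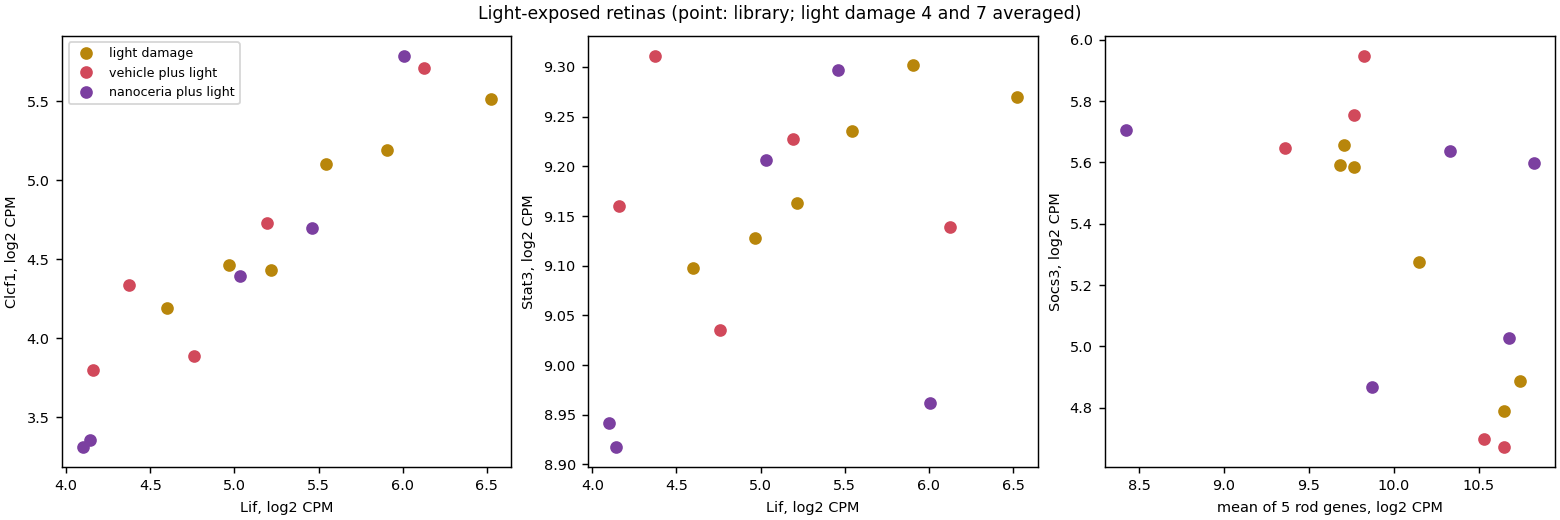
Log2 CPM of Clcf1 and of Stat3 against Lif, and of Socs3 against the mean of 5 rod genes, in 16 light-exposed libraries coloured by group. Clcf1 rises with Lif in all groups (r = 0.94), Stat3 against Lif gives r = 0.39 over the 16 libraries, and Socs3 is lower where rod genes are higher (r = -0.60), with 1 nanoceria plus light library far to the left at a rod level of 8.42.

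Over all 31 libraries, the genes whose pattern was most like each member were found by the root mean square difference of centred log2 CPM. Lif was nearest to Fosl1 (0.38), an AP-1 subunit, then Fam71a (0.61) and Ccl3 (0.66), a chemokine. Socs3 was also nearest to Fosl1 (0.41), followed by Fam71a (0.53) and Slc13a5 (0.56). Osmr was nearest to Icam1 (0.28), Timp1 (0.32) and Csf2rb (0.33), and Stat3 to Irf9 (0.19), a partner of STAT2, and Kremen1 (0.21). The nearest genes of the other members were Hmox1 for Clcf1 (0.38), Ccl2 for Il6 (0.75), Timp1 for Osm (0.37), Akr1b1 for Cntf (0.19), Tpr for Lifr (0.082) and Taf4b for Il6st (0.14). Genes that vary little, such as Lifr, have small differences to many genes.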

How the data were processed

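Raw read counts per gene, as deposited by the authors, were used for 31 of 42 labelled rat retina samples, and 11 samples were not analysed here. Per the submitters' processing notes, Trimmomatic 0.39, STAR 2.7.9a, featureCounts of Subread 2.0.1, DESeq2 1.30.1 and build rn6 were used, and the sources used here do not state the annotation or strand setting. How reads over overlapping genes were counted is therefore not known.

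Counts were scaled by TMM and fitted with edgeR 4.0.16 (R 4.3.3; quasi-likelihood, robust) over all 31 libraries with group as the only term. Genes needed 10 counts in enough libraries and 15 in total: 18094 of 32623 were tested and 14529 left out, 9389 of them at 0 everywhere. Intervals are 95%. CPM used the scaled library size. Library totals of 25158407 to 182162368 limit the precision of Il6 and Osm, the genes of lowest count. The p-values set each difference between groups against a spread estimated over all libraries, with the near-identical pairs counted as separate.

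The 10 members and the gene lists were chosen with earlier results of these data known. The named genes were the members, all receptors, and up to 6 genes per list with the smallest adjusted p over the 3 light comparisons, and A2m and Hif1a were added after their values were seen. Adjusted p-values run over all genes tested. Alternatives were DESeq2 1.42.0 (Wald test and size factors), library size alone, no filter, only the groups compared, a replicate block, a term for sex, near-identical pairs summed and each library left out. The sex term took libraries with more than 10 CPM of a Y-linked gene as male. Replicate numbers were not used as pairs, since no shared animal or day is given for them and not every same-numbered pair had correlated deviations. The fit was tested on simulated data for light damage against control, where 18094 genes held 200 changed ones. Of those changed 2-fold 92.5% were called in the right direction, and of those changed 1.5-fold 58.2%. The changed genes were drawn without those of lowest level, and libraries were simulated as independent. The other comparisons and the interactions were not tested in this way. Log2 CPM for correlations and likeness used a prior count of 2. Sequences are from RefSeq (GRCr8), which held windows for 7 members. Some genes of the lists are not reported here.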

Additional observations from a re-analysis of the deposited data

Results flagged for a closer look

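In 60 combinations of gene and group with 4 to 10 libraries, the highest or lowest library was tested for its distance from the others by Dixon's criterion, and 5 stood out, where chance gives about 1 in 20. Cntf in nanoceria had its lowest value in library 3 (9.74 CPM, the other 3 at 14.6 to 15.5). Il6 in vehicle plus light had its highest in library 2 (8.42 CPM, the next at 2.72). Osm in nanoceria plus light had its highest in library 4 (1.75 CPM, the next at 0.784). Osm in vehicle had its lowest in library 4 (0.0872 CPM), while the near-identical library 7 held 0.190 CPM. Socs3 in control had its highest in library 6 (2.47 CPM, the next at 1.79).

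The light response of Icam1, a STAT3 target, differed between nanoceria-injected and uninjected eyes by the test of the interaction (-1.20, edgeR adjusted p = 0.0266, with 0.0715 in the replicate block and 0.000474 to 0.0715 over all alternatives). Its mean was 11.7 CPM in controls and 17.9 CPM after nanoceria, and 79.9 and 53.4 CPM with light.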

How the results depend on the processing

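The number of members called was 8 in each light comparison and 0 in the other 9 under the alternatives run, with these exceptions. In nanoceria against control it was 1 (Socs3) with DESeq2 size factors and with the DESeq2 Wald test, and 0 to 1 with each library left out. With only the groups compared, Osm in nanoceria plus light against nanoceria was lost, which left 7. For single members, 2502 of the values under alternatives kept the outcome of the main fit (called or not), 4 gained a call and 1 lost it. Of the values called in the main fit, 0 reversed direction, and direction was not compared for the others. For the listed genes 3038 kept that outcome, 24 gained a call and 57 lost one, and the cause was not tested.

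No shared animal or day is given for the replicate numbers, and 60 same-numbered pairs had deviations correlated by -0.35 to 0.38 (median 0.078, 23 above 0.1, against a median of -0.0058 in other pairs), with 12 of 31 libraries closest to one of the same number. With the replicate block, members called stayed at 8, 8 and 8 with light and 0 elsewhere. The calls over all genes went from 445 to 184 in nanoceria against control and from 74 to 16 (nanoceria) and 8 to 5 (vehicle) in the interactions with uninjected eyes. Il27ra, Hif1a, Il11 after nanoceria and the Icam1 interaction lost their calls, and Gfap after vehicle gained one.

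Over all genes, counts of calls moved by over 1.5 times mostly where few genes were called. With DESeq2 they were 52 (main 4) in vehicle against control, 727 (445) in nanoceria against control, 40 (0) in nanoceria against vehicle, 89 (22) and 89 (11) in vehicle plus light and nanoceria plus light against light damage, 4 (0) between these injected groups, and 40 (8), 275 (74) and 1 (0) in the interactions. With only the groups compared, 1107 genes in place of 2520 were called in nanoceria plus light against nanoceria, 0 in vehicle against control and 5 in nanoceria plus light against light damage. The sex term gave 1 in vehicle against control and 47 in the nanoceria interaction, and summed pairs gave 7 and 39 in nanoceria plus light against light damage and in that interaction. Leaving out libraries gave 1 to 24, 205 to 432, 0 to 3, 5 to 47, 5 to 21 and 14 to 158 in vehicle against control, nanoceria against control, nanoceria against vehicle, nanoceria plus light against light damage, and the vehicle and nanoceria interactions. Library size alone moved the median of all genes to 0.12 after vehicle and gave 2371 higher and 1100 lower genes without injection, 2434 and 688 after vehicle and 1480 and 671 after nanoceria, in place of 2147 and 1927, 1749 and 1297, and 1474 and 1046. With DESeq2 size factors the split after nanoceria was 1115 and 1306. No called member changed direction. Depth limits Il6, which had at most 4 counts in any unexposed library and passed the filter in no fit of unexposed groups alone.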

Other observations

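Nanoceria plus light library 4 combined the lowest rod level of its group with the highest levels of Lif, Il6, Clcf1 and Osm, but not of Cntf. Its mean log2 CPM of 5 rod genes was 8.42, where the others of the group lay between 9.87 and 10.83. It was the highest of its group for Lif (64.3 CPM), Il6 (4.65 CPM), Clcf1 (55.3 CPM), Osm (1.75 CPM) and Socs3 (52.1 CPM), and the lowest for Il6st (200 CPM). Cntf was highest in library 2 of that group (21.8 CPM) and Osmr in library 3 (35.1 CPM).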
